A study of Rattus norvegicus with 24 samples.

Results

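The microRNAs rno-miR-203a-3p and rno-miR-205, below miR-203a-3p and miR-205, were followed in rat serum across 2 diets and 2 exposures. They were chosen by name, as 2 of the 753 mature miRNA names in the deposited tables, and both were counted in all 23 libraries. The groups were fish oil with ozone (5 libraries), fish oil with air (6), the normal diet with ozone (6) and the normal diet with air (6), each library from 1 male Wistar Kyoto rat. Rats were put on their diet when 4 weeks old and kept on it for 8 weeks, with fish oil making up 6% of the feed by weight or with normal chow. The exposures lasted 4 h per day on 2 days, to filtered air or to 0.8 ppm ozone, measured as 0.8045 ppm. No other oil was analysed here, so fish oil cannot be told apart from added oil or from any other difference between the diets. The second replicate of fish oil ozone is not analysed here.

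A miRNA is a short RNA whose seed, bases 2 to 8 from its 5′ end, pairs with sites in mRNAs and lowers the output of those mRNAs. Both miRNAs are abundant in stratified squamous epithelia such as the epidermis and the lining of the mouth and oesophagus. In mouse skin, miR-203 promotes the exit of keratinocytes from the cell cycle by repressing the transcription factor p63. In mouse skin and cultured epithelial cells, miR-205 is known for maintaining progenitor growth and, with the miR-200 family, for repressing the mesenchymal factors Zeb1 and Zeb2. Serum holds miRNAs released by many tissues, so more releasing cells and more miRNA released per cell cannot be told apart in these libraries.

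The mature sequences are shown because they define what was counted and because the opposite strand of the miR-203 hairpin also carries named miRNAs. They are the RefSeq sequences of the rat build GRCr8, 5′ to 3′, with the seed in capitals.
miR-203a-3p: gUGAAAUGuuuaggaccacuag
miR-205: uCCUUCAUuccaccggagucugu
miR-203b-3p: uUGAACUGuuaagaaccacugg
miR-203a-5p: aGUGGUUCuuaacaguucaac
The seeds of miR-203a-3p and miR-205 differed from each other, and among 693 rat mature names in RefSeq neither seed was found in any other. The longest run of bases that the 2 miRNAs share was 4. By contrast, miR-203b-3p is the reverse complement of miR-203a-5p over 20 bases, since it comes from a hairpin on the opposite strand of the same locus.

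The hairpins show where each mature miRNA lies, in capitals, within its precursor. In the hairpin of Mir203, of 97 bases, miR-203a-3p takes bases 52 to 73 of the 3′ arm. In the hairpin of Mir205, of 108 bases, miR-205 takes bases 33 to 55 of the 5′ arm.
Mir203: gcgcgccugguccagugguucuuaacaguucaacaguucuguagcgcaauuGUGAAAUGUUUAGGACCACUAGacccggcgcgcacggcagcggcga
Mir205: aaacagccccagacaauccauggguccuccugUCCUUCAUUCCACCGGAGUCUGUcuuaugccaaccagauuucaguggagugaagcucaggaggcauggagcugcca
The files place miR-203a-3p on chromosome 6 at 145714684 to 145714706 and miR-205 on chromosome 13 at 116787671 to 116787694, in build rn5. In RefSeq's GRCr8 annotation, Mir203 overlaps Mir3545, the gene of miR-203b, and its nearest protein-coding genes are Aspg and Kif26a. Mir205 has Camk1g and Plxna2 as its nearest protein-coding genes.

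The miRNA total of a library lay between 23279 and 94264 counts. It averaged 33302 ± 7385 counts in fish oil ozone and 37264 ± 11332 in fish oil air, against 63357 ± 20129 in normal diet ozone and 65638 ± 15674 in normal diet air (SD, n = 5, 6, 6 and 6). The total of all reads, worked out from the deposited counts and RPM and called the implied read total, lay between 2243920 and 7729950 per library. As a share of it, miRNA counts averaged 0.826% ± 0.335 and 0.660% ± 0.181 in the fish oil groups with ozone and air, against 1.56% ± 0.578 and 1.36% ± 0.563 in the normal diet groups with ozone and air (SD, n as above). The miRNA pool of the fish oil libraries averaged less on both measures, so 2 scales answer different questions. CPM, counts scaled to a common library size with edgeR's trimmed mean of M values (TMM), give a miRNA's level relative to the other miRNAs, and RPM, as the authors deposited them, give it relative to all reads.

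Relative to the other miRNAs, both were higher on fish oil, by 1.65-fold for miR-203a-3p and by 2.27-fold for miR-205 averaged over air and ozone. Relative to all reads, the diet difference passed the test for neither miRNA. No comparison of ozone with air passed the test for either miRNA on either scale. The counts behind these statements averaged 147 per library for miR-203a-3p and 11.6 for miR-205.

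miR-203a-3p, the differentiation-linked miRNA of squamous epithelium, had 3755, 4340, 6100, 2839 and 2337 CPM in the libraries of fish oil ozone. Its lowest, median and highest levels were 2021, 3405 and 5881 CPM in fish oil air, 1313, 2181 and 2739 CPM in normal diet ozone, and 1533, 2544 and 2894 CPM in normal diet air. In ozone, 4 of the 5 fish oil libraries lay above every library of normal diet ozone, and fish oil ozone 6 lay within the range of that group. In air, fish oil 4, 5 and 6 lay above every library of normal diet air, while fish oil 1, 2 and 3 lay within the range of that group. In order of their mean levels, the groups were fish oil ozone (3874 ± 1468 CPM), fish oil air (3635 ± 1685), normal diet air (2414 ± 527) and normal diet ozone (2146 ± 529; SD, n = 5, 6, 6 and 6). Neighbours in this order did not differ past the test of each pair given below.

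miR-205, the progenitor-linked miRNA, had 246, 132, 473, 233 and 273 CPM in the libraries of fish oil ozone. Its lowest, median and highest levels were 217, 277 and 781 CPM in fish oil air, 47.8, 114 and 250 CPM in normal diet ozone, and 77.7, 152 and 234 CPM in normal diet air. In air, 5 of the 6 fish oil libraries lay above every library of normal diet air, with fish oil air 2 inside their range. In ozone the groups overlapped more, and fish oil ozone 4 and 6 alone lay above every library of normal diet ozone. These levels rest on few reads: the counts were 8, 4, 21, 6 and 9 in fish oil ozone, 6 to 49 in fish oil air, 3 to 22 in normal diet ozone and 4 to 17 in normal diet air. The order of the mean levels put fish oil air first (386 ± 222 CPM), then fish oil ozone (271 ± 125), normal diet air (154 ± 67.1) and normal diet ozone (131 ± 82.6; SD, n = 6, 5, 6 and 6). Neighbours in this order did not differ past the test that joins them, where one was run; fish oil ozone and normal diet air differ in both factors and were not compared.

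**Figure D1:**
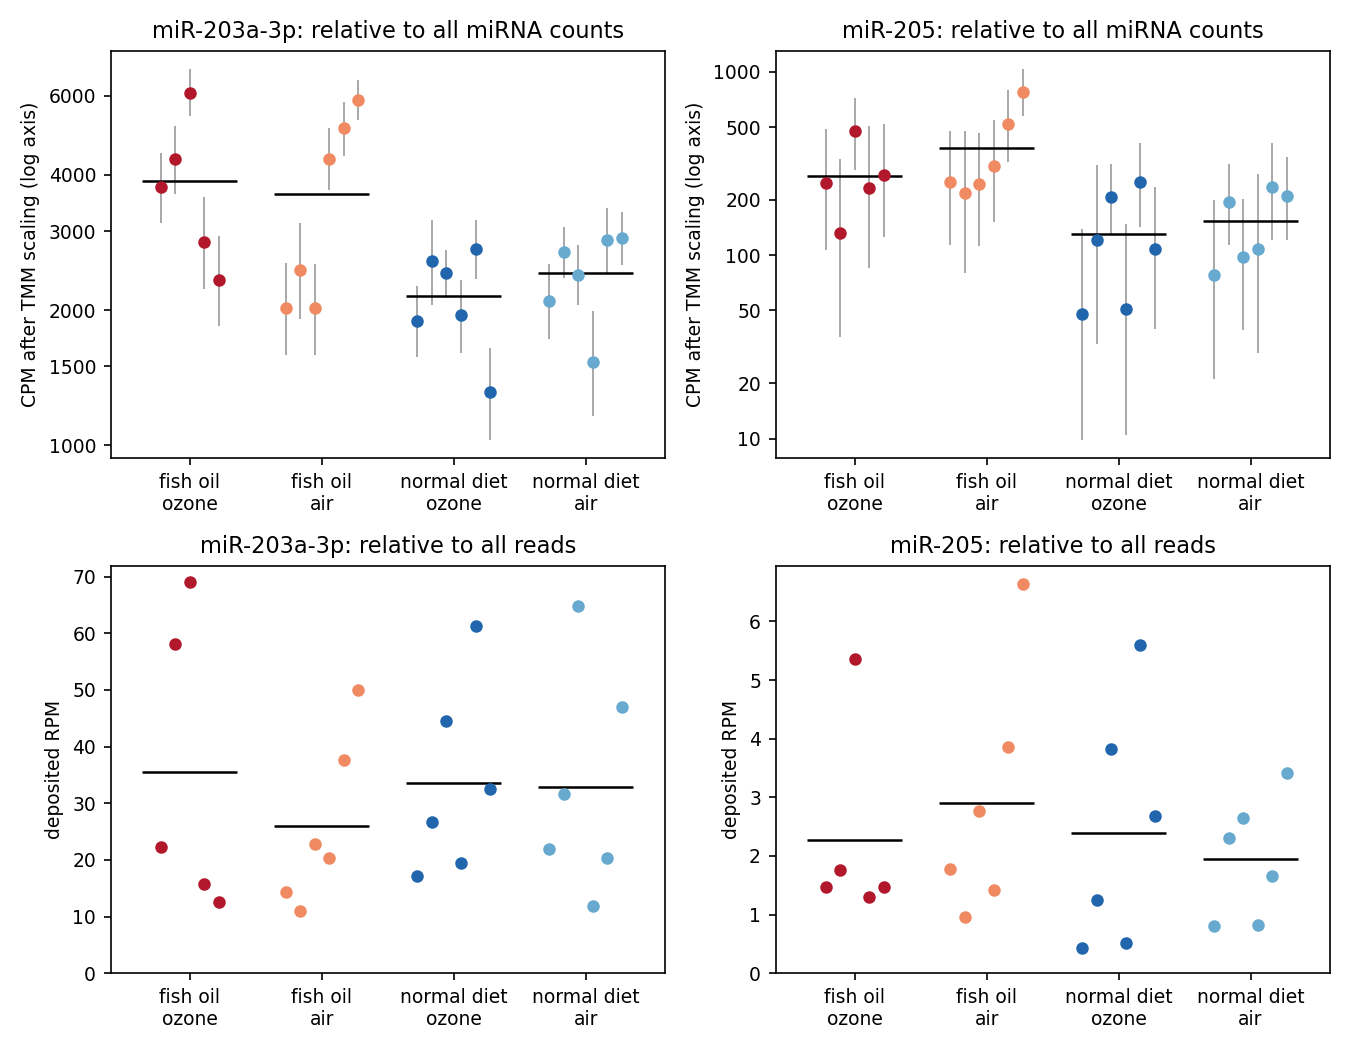
Each point is 1 library: the upper panels give CPM after TMM scaling on a log axis with exact 95% Poisson intervals of the count, the lower panels the deposited RPM on a linear axis, and black lines are group means. The fish oil groups have the higher mean CPM (3874 and 3635 against 2146 and 2414 for miR-203a-3p), whereas its mean RPM over both exposures is 30.4 on fish oil and 33.3 on the normal diet.

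Averaged over air and ozone, miR-203a-3p rose on fish oil to 3744 ± 1515 CPM, against 2280 ± 522 CPM on the normal diet (SD, n = 11 and 12). The log2 fold change was +0.72 (SE 0.20, 95% interval 0.32 to 1.13, edgeR quasi-likelihood F test, adjusted p = 0.00535). Of the 11 fish oil libraries, 9 lay above the mean log2 level of the normal diet group in the same exposure. miR-205 rose to 334 ± 186 CPM on fish oil, against 142 ± 72.7 CPM on the normal diet (SD, n = 11 and 12). Its log2 fold change was +1.18 (SE 0.32, 95% interval 0.53 to 1.84, edgeR adjusted p = 0.00480), with 11 of 11 fish oil libraries above the mean of their own exposure's normal diet group. In this comparison 36.8% of the 136 tested miRNAs passed in either direction and 19.9% passed as higher, so a call on fish oil was common. By size of fold change, miR-205 ranked 8 and miR-203a-3p ranked 20 among the 136 from the highest increase down, and the median of all 136 was +0.06. Both calls held in all 23 fits that left out 1 library each. miR-205 failed the low-count filter when only the normal diet groups were fitted, so its levels on fish oil brought it into the 136. Its rank among them carries that limit. Without the filter its log2 fold change was +1.08 (edgeR adjusted p = 0.0156).

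In ozone, miR-203a-3p rose on fish oil by 0.86 on the log2 scale (SE 0.29, 95% interval 0.27 to 1.45, edgeR adjusted p = 0.0296), with 5 of 5 fish oil libraries above the normal diet mean. This call was sensitive to single libraries. It was not past the threshold of 0.05 without fish oil ozone 1, 3 or 4 (adjusted p = 0.0625, 0.0940 and 0.119), without normal diet ozone 1, 4 or 6 (0.0813, 0.0820 and 0.0591), or without normal diet air 5 or 6 (0.0558 and 0.0521), and its log2 fold change over all such fits ranged from 0.67 to 0.98. miR-205 had a log2 fold change of +1.03 in ozone (SE 0.48, 95% interval 0.06 to 2.00, edgeR adjusted p = 0.113), with 5 of 5 libraries above the normal diet mean. In this comparison 22.8% of the 136 miRNAs, 31 in number, passed, and 12 did without fish oil ozone 3.

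In air, miR-205 had the larger estimate, +1.33 on the log2 scale (SE 0.43, 95% interval 0.45 to 2.22), with 6 of 6 fish oil libraries above the normal diet mean, but it missed the threshold (edgeR adjusted p = 0.0533). It passed without fish oil ozone 3 (adjusted p = 0.0497) or without fish oil air 1, 2 or 3 (0.0414, 0.0416 and 0.0430). DESeq2 also called it, at +1.34 (adjusted p = 0.0306). The other 19 of the 23 fits that left out 1 library did not call it. Neither did limma voom (+1.30, adjusted p = 0.0660) or edgeR without the low-count filter (+1.25, adjusted p = 0.117). miR-203a-3p had +0.59 (SE 0.28, 95% interval 0.03 to 1.16, edgeR adjusted p = 0.156), with 4 of 6 libraries above the normal diet mean. In air 5.88% of the 136 miRNAs, 8 in number, passed. That count was 15 without fish oil air 3, 3 without fish oil air 4 or 5, 4 without fish oil air 6 or normal diet air 5, and 5 without normal diet air 6. The effect of fish oil in ozone was not shown to differ from that in air: the interaction was +0.26 for miR-203a-3p (SE 0.40, 95% interval −0.55 to 1.08) and −0.30 for miR-205 (SE 0.65, 95% interval −1.63 to 1.02), each with an edgeR adjusted p of 0.947. Across all miRNAs the interaction called 0 of 136 with edgeR (0%), 6 at an unadjusted p under 0.05, and 0 with DESeq2 and with voom.

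On the scale of all reads, the picture was different. miR-203a-3p had 22.4, 58.0, 69.1, 15.8 and 12.6 RPM in the libraries of fish oil ozone. Its lowest, median and highest values were 10.9, 21.5 and 50.0 RPM in fish oil air, 17.2, 29.6 and 61.3 RPM in normal diet ozone, and 11.8, 26.8 and 64.9 RPM in normal diet air. The groups overlapped throughout, and the means over both exposures were 30.4 ± 20.2 RPM on fish oil and 33.3 ± 17.4 RPM on the normal diet (SD, n = 11 and 12). miR-205 had 1.47, 1.76, 5.35, 1.30 and 1.47 RPM in fish oil ozone. Its lowest, median and highest values were 0.965, 2.27 and 6.64 RPM in fish oil air, 0.434, 1.97 and 5.60 RPM in normal diet ozone, and 0.813, 1.98 and 3.42 RPM in normal diet air. These groups overlapped as well, with means of 2.62 ± 1.88 RPM on fish oil and 2.16 ± 1.57 RPM on the normal diet (SD, n = 11 and 12).

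When the implied read total served as the library size, the diet averaged over exposures gave log2 fold changes of −0.13 for miR-203a-3p (SE 0.35, edgeR adjusted p = 0.767) and +0.28 for miR-205 (SE 0.44, edgeR adjusted p = 0.592). The median of all 136 miRNAs on that scale was −0.87, and edgeR called 1 miRNA higher and 70 lower. Both members lay above that median, as they did with TMM scaling. A change of library size moves all miRNAs together, so this is not a second check. The direction of both members against all reads was not resolved. The unscaled mean counts were nearly equal for miR-203a-3p, 147.4 per fish oil library and 146.7 per normal diet library, and were 13.9 and 9.5 for miR-205.

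**Figure D2:**
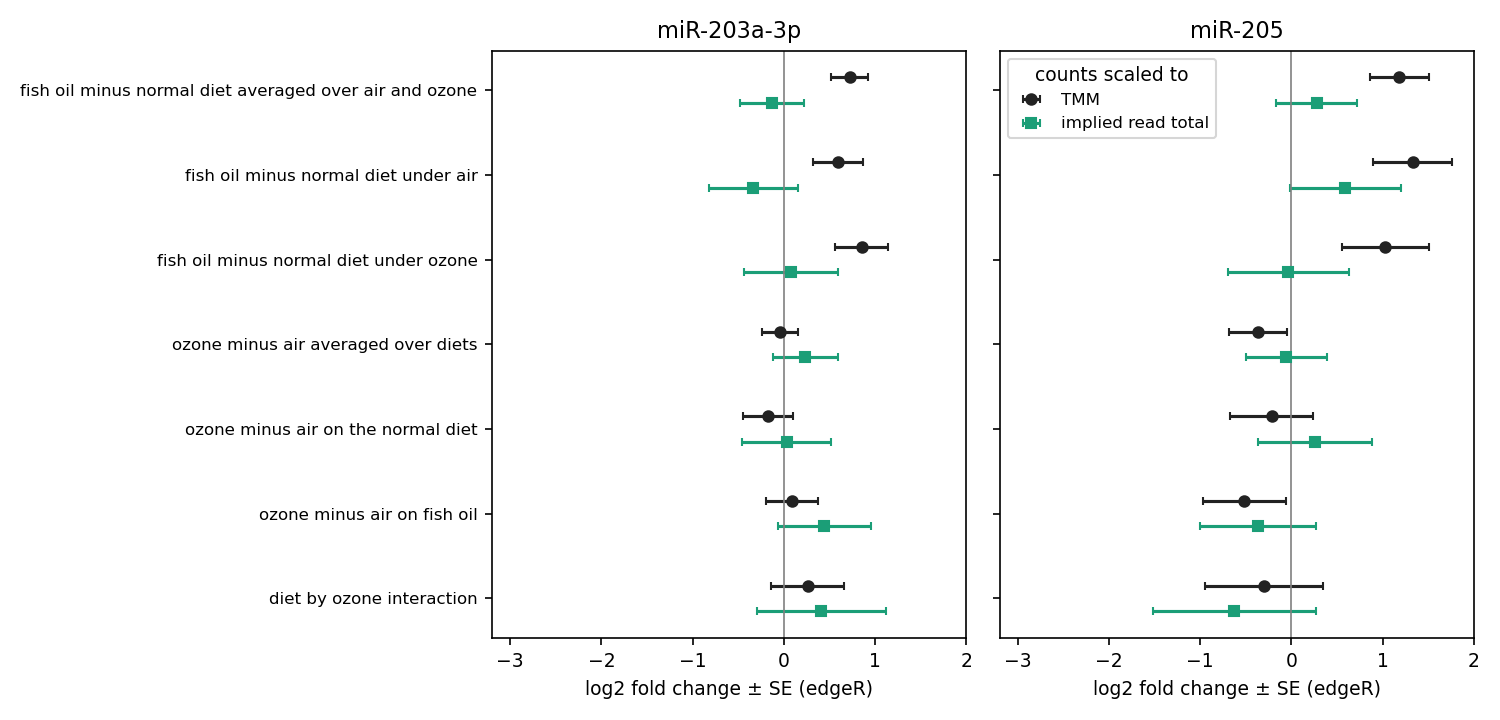
Log2 fold changes (x axis) of both miRNAs for the 7 comparisons (y axis), from edgeR with all 23 libraries; circles are counts scaled by TMM, squares counts scaled to the implied read total, and bars are ± 1 SE. For fish oil averaged over exposures the circles stand at +0.72 and +1.18 and the squares at −0.13 and +0.28.

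Ozone was compared with air on each diet and averaged over diets. Averaged over diets, the log2 fold change of ozone was −0.04 for miR-203a-3p (SE 0.20, 95% interval −0.45 to 0.37, edgeR adjusted p = 0.975) and −0.37 for miR-205 (SE 0.32, 95% interval −1.02 to 0.29, edgeR adjusted p = 0.915). As a fold of the air level, these intervals run from 0.732 to 1.29 for miR-203a-3p and from 0.492 to 1.22 for miR-205. On the normal diet the values were −0.17 (SE 0.28) for miR-203a-3p and −0.21 (SE 0.45) for miR-205, each with an edgeR adjusted p of 0.939. On fish oil they were +0.09 (SE 0.29, edgeR adjusted p = 0.983) and −0.52 (SE 0.46, edgeR adjusted p = 0.810), and 1 of 5 ozone libraries lay above the fish oil air mean of miR-205. Averaged over diets, edgeR called 1 of the 136 miRNAs, which is 0.735%. DESeq2 called 1 and voom 0, and the edgeR count was 0 in 18 of the 23 fits that left out 1 library, all but those without fish oil ozone 6, fish oil air 6, normal diet ozone 3 or 5, or normal diet air 3. On either diet alone it called 0 of 136 (0%), with 4 on the normal diet and 10 on fish oil at an unadjusted p under 0.05. DESeq2 called 1 miRNA on the normal diet and 0 on fish oil, and voom called 0 on both. Without normal diet air 3, edgeR called 1 on the normal diet.

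The precision of the miRNAs differs with their depth. Counting error alone gives a coefficient of variation of 8.25% at the mean count of miR-203a-3p and 29.4% at that of miR-205. The biological coefficient of variation that edgeR estimated between rats of a group was 33.4% for miR-203a-3p and 43.3% for miR-205, against a median of 34.7% over the 136 miRNAs. The reads are PCR products without molecular identifiers, so counting intervals cover counting error only.

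Across the 23 libraries the log2 CPM of the pair moved together, with Pearson's r = 0.738 (permutation p = 6e-05, adjusted over 4 relations 0.00024) and Spearman's rho = 0.675 (permutation p = 0.00059, adjusted 0.00236). Without the 2 libraries farthest from the median of miR-203a-3p, r was 0.606 over 21 libraries. After each group's mean was subtracted, r was 0.63 (permutation p = 0.0033, adjusted 0.0066) and rho was 0.614 (permutation p = 0.00502, adjusted 0.01), and r without 2 libraries was 0.546. The libraries highest in both were fish oil air 5 and 6 and fish oil ozone 4. Both levels share the TMM scale factor of their library.

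**Figure D3:**
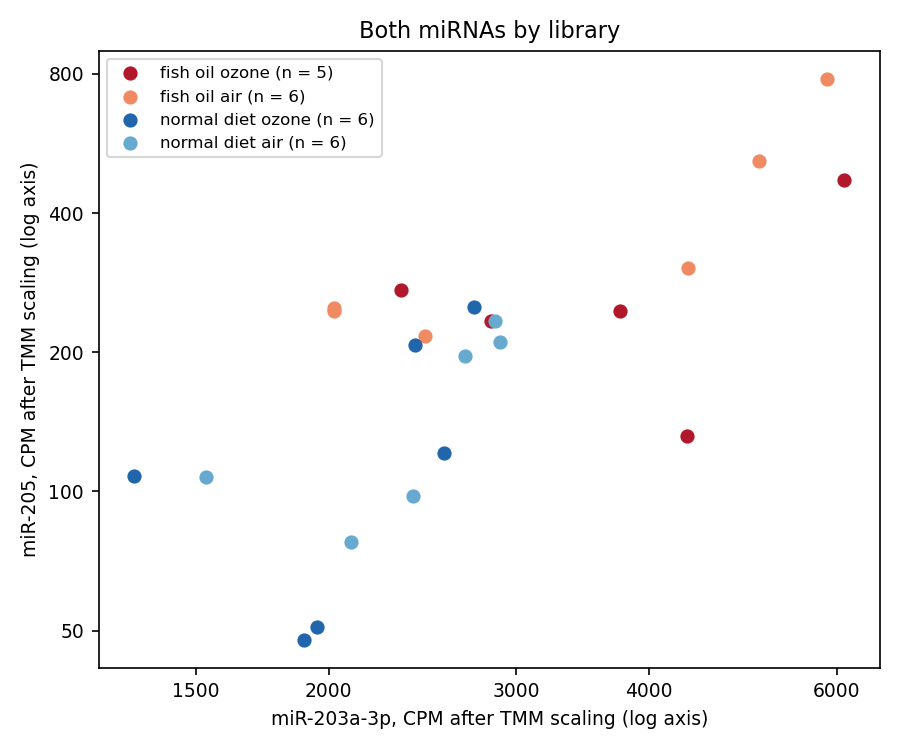
Each point is 1 library, with miR-203a-3p on the x axis and miR-205 on the y axis, both as CPM after TMM scaling on log axes, coloured by group. Fish oil air 6 stands at 5881 and 781 CPM, and the highest normal diet values are 2894 CPM of miR-203a-3p and 250 CPM of miR-205.

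The ratio of the 2 miRNAs needs no scaling between libraries. There were 7.26 miR-205 counts per 100 of miR-203a-3p in fish oil ozone and 10.8 in fish oil air, against 5.69 in normal diet ozone and 6.37 in normal diet air (group means of the log2 ratio, taken back to percent, with 0.5 added to each count). The log2 ratio was higher on fish oil by 0.56 averaged over exposures (exact permutation p = 0.0385, adjusted over 18 ratio comparisons 0.115) and by 0.76 in air (exact permutation p = 0.0108, adjusted 0.0909), so neither difference passed. Without fish oil ozone 3, which had the lowest ratio of its group, the first was 0.69 (adjusted p = 0.0485) and the second stayed at 0.76 but passed (adjusted p = 0.0487). That library is not in the air comparison, so there only the adjustment over the 18 comparisons changed.

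The other squamous names were sparse. A list of 7 names held the mature miRNAs of the miR-203 locus, miR-205, miR-31a-5p, a miRNA of growing and wounded keratinocytes, and miR-184, known from cornea and epidermis. Of these, 3 passed the low-count filter, 2 rose on fish oil averaged over exposures (the members themselves), 0 fell, and miR-203b-3p did not pass (−0.67, SE 0.43, edgeR adjusted p = 0.228). The median of the 3, +0.72, is the value of miR-203a-3p itself, so the list adds no evidence beyond the members. Over all 136 miRNAs the median was +0.06 and 19.9% passed as higher. Below the filter, miR-31a-5p had 173 counts over 21 libraries, miR-184 had 35 over 13, miR-203a-5p had 7 over 2 and miR-203b-5p had 0.

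The miR-200 family marks epithelia in general and was compared with the members because it is not confined to squamous tissue. Of 5 names, 3 passed the filter and none passed the test averaged over exposures, which 36.8% of all 136 tested miRNAs passed in either direction and 19.9% as higher. miR-200a-3p had +0.46 (SE 0.23, edgeR adjusted p = 0.103), miR-141-3p had +0.38 (SE 0.28, adjusted p = 0.303) and miR-429 had −0.03 (SE 0.37, adjusted p = 0.948), with a median of +0.38. In ozone alone miR-200a-3p rose on fish oil (+1.11, SE 0.33, edgeR adjusted p = 0.0137), where 22.8% of the 136 miRNAs passed in either direction. In air it had −0.19 (SE 0.32, edgeR adjusted p = 0.748). The diet by ozone interaction of miR-200a-3p was +1.30 (SE 0.46, edgeR adjusted p = 0.468). It did not pass, so the effect of fish oil on miR-200a-3p was not shown to differ between ozone and air. The summed level of the 5 names lay between 1761 and 5795 CPM in fish oil ozone and between 1054 and 3156 CPM in fish oil air, against 1099 to 2555 CPM in normal diet ozone and 1546 to 3084 CPM in normal diet air.

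Set against the miR-200 family sum, miR-205 was higher on fish oil in air by 1.51 on the log2 scale (exact permutation p = 0.00433, adjusted over the same 18 comparisons 0.0779) and averaged over exposures by 0.87 (exact permutation p = 0.0277, adjusted 0.115). With ozone, the same ratio on fish oil was lower than with air by 1.29 (exact permutation p = 0.0152, adjusted 0.0909). Both parts of the ratio moved: miR-200a-3p had +0.84, miR-141-3p +0.86 and miR-429 +1.35 for ozone on fish oil, and miR-205 −0.52. None of these passed in edgeR. miR-203a-3p to the family sum differed by +0.75 in air (adjusted exact permutation p = 0.115) and by −0.12 in ozone (adjusted 0.811). None of the 18 ratio comparisons passed with all libraries. The air difference of miR-205 to the family passed without fish oil ozone 3 (1.51, adjusted p = 0.0485), fish oil ozone 6 (1.51, adjusted 0.0429) or normal diet air 2 (1.70, adjusted 0.0390), the averaged one without fish oil ozone 3 (1.03, adjusted 0.0485), and the ozone difference on fish oil without fish oil ozone 6 (−1.55, adjusted 0.0429). Fish oil ozone 3 and 6 are not in the air comparison. Without either, its exact permutation p stayed at 0.00433 and only the adjustment changed.

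**Figure D4:**
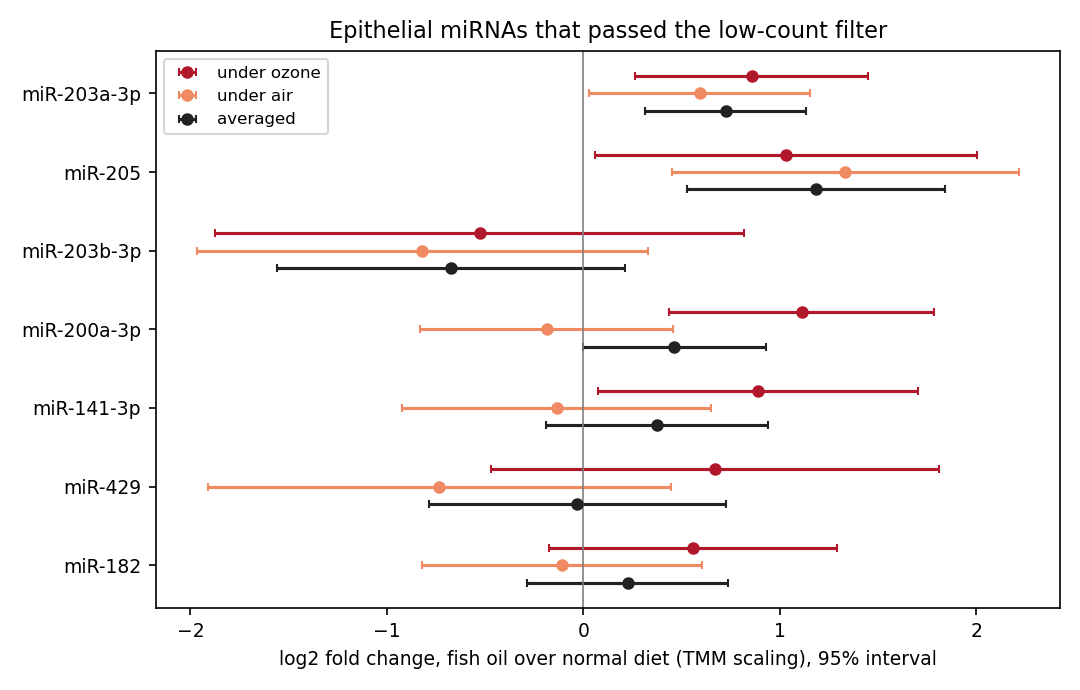
Log2 fold changes of fish oil over normal diet (x axis) with 95% intervals from edgeR, for the 7 epithelial miRNAs that passed the low-count filter (y axis), in ozone, in air and averaged. Averaged over exposures, miR-203a-3p (+0.72) and miR-205 (+1.18) passed the test and the other 5, from −0.67 to +0.46, did not. Of all 136 tested miRNAs, 36.8% passed in either direction. The ratio of either member to the miR-200 family sum did not pass for this comparison.

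Names known from ciliated airway epithelium, the miR-34b/c and miR-449 groups, had few counts: 0 of 6 passed the filter, the highest total was 48 counts for miR-34c-5p, and miR-34b-5p and miR-449c-5p were at 0. Their sum lay between 60.7 and 395 CPM in fish oil ozone (mean 212 ± 127) and between 0 and 194 CPM in fish oil air (56.5 ± 69.2), against 36.0 to 141 CPM in normal diet ozone (75.0 ± 39.2) and 13.2 to 167 CPM in normal diet air (88.0 ± 63.5; SD, n = 5, 6, 6 and 6). The highest mean was thus that of fish oil ozone, with ranges that overlap, and it lies within the range of miR-205 levels. In the epithelial miR-183 cluster only miR-182 passed the filter (+0.23 averaged over exposures, SE 0.25, edgeR adjusted p = 0.518), and miR-96-5p was at 0. The cluster summed to 369 to 1128 CPM in fish oil ozone (mean 799 ± 281) and 273 to 761 CPM in fish oil air (509 ± 196), against 282 to 918 CPM in normal diet ozone (541 ± 223) and 321 to 898 CPM in normal diet air (521 ± 205; SD, n as above). The part of ciliated or other epithelium in the levels of miR-203a-3p and miR-205 was not tested. A count of 0 in a library allows up to 28.3 to 117 CPM across the libraries, taking 3 counts as the limit.

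Several miRNAs of other cell types moved with the diet as the members did. Averaged over exposures, 36.8% of all 136 tested miRNAs passed in either direction and 19.9% passed as higher. Calls in these short lists stand beside those shares. Of 4 erythrocyte names 3 were in the tables and tested, and on fish oil averaged over exposures miR-144-3p (+0.98, SE 0.37, edgeR adjusted p = 0.0322) and miR-144-5p (+1.32, SE 0.28, adjusted p = 0.000656) rose, while miR-451-5p had +0.58 (SE 0.36, adjusted p = 0.208). The sum of the erythrocyte names ranged from 492 to 2630 CPM in fish oil ozone and 831 to 3059 CPM in fish oil air, against 271 to 1084 CPM in normal diet ozone and 496 to 1184 CPM in normal diet air. With an erythrocyte index (log2 of miR-451-5p over miR-23a-3p) as a covariate, the diet averaged over exposures gave +0.76 for miR-203a-3p (edgeR adjusted p = 0.00481) and +1.19 for miR-205 (adjusted p = 0.00619). The index rests on miR-451-5p, which was not called, and not on the miR-144 arms. The part of erythrocyte RNA in the members' levels was not tested.

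Of the smooth muscle names, both that passed the filter rose: miR-143-3p by 1.07 (SE 0.23, edgeR adjusted p = 0.000913) and miR-145-5p by 1.22 (SE 0.34, adjusted p = 0.00585) on the log2 scale. Their list summed to 168097 to 437374 CPM in fish oil ozone and 110604 to 382012 CPM in fish oil air, against 79644 to 190022 CPM in normal diet ozone and 86279 to 269634 CPM in normal diet air. Of the striated muscle names 3 of 4 were tested and 0 passed, with sums of 1085 to 2100 and 581 to 3876 CPM on fish oil with ozone and air, against 363 to 2942 and 53.8 to 3770 CPM on the normal diet with ozone and air. Of 3 liver names 1 fell, miR-192-5p (−0.62, SE 0.19, edgeR adjusted p = 0.0118), with sums of 63654 to 161297 and 29150 to 67559 CPM on fish oil, against 47639 to 137706 and 63371 to 189607 CPM on the normal diet, ozone and air in that order. Averaged over exposures, miR-122-5p (−1.02, SE 0.43, edgeR adjusted p = 0.0665) and miR-194-5p (−0.39, SE 0.36, adjusted p = 0.431) did not pass. In air 2 of the 3 liver names passed as lower and in ozone 0 passed, beside 5.88% and 22.8% of all 136 in either direction. The part of smooth muscle, striated muscle and liver RNA in the members' levels was not tested.

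Reads on the 5′ arm of the miR-203 locus carry 2 names on opposite strands, miR-203b-3p at 145714644 to 145714666 and miR-203a-5p at 145714646 to 145714667 on chromosome 6 (rn5). In normal diet ozone 6 the deposited table divided 9 such reads into 6.05 for miR-203a-5p and 2.95 for miR-203b-3p. Whether counting used the strand is not given in the sources used here, so the names of these reads are uncertain, and they were summed over the arm. On the 3′ arm, miR-203b-5p took at most 0.339 of a read, in fish oil ozone 3, and adding it to miR-203a-3p changed no call.

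A comparison of the arms, chosen after the values had been seen, put the 5′ arm at 3, 2, 2, 9 and 1 counts in the libraries of fish oil ozone. In the groups of 6 it ranged from 3 to 10 counts in fish oil air, from 1 to 16 in normal diet ozone and from 5 to 30 in normal diet air. Per 100 counts of the 3′ arm, the group means of the log2 ratio correspond to 2.62 in fish oil ozone and 4.21 in fish oil air, against 6.86 in normal diet ozone and 8.66 in normal diet air. The log2 ratio was lower on fish oil by 1.21 averaged over exposures (exact permutation p = 0.0169) and by 1.04 in air (exact permutation p = 0.0303), each with an adjusted p of 0.0909 over 6 comparisons, so it did not pass. It passed averaged over exposures without fish oil ozone 5, normal diet ozone 1 or normal diet air 3 (adjusted p = 0.0184, 0.0179 and 0.0325), and in air without normal diet air 3 (adjusted p = 0.0325). Across libraries miR-203b-3p was not correlated with miR-203a-3p past the threshold (r = 0.0672, permutation p = 0.761, adjusted over 4 relations 0.761, and rho = 0.193, permutation p = 0.378, adjusted 0.378, n = 23). After group means were subtracted, the values were higher but did not pass either (r = 0.269, permutation p = 0.185, adjusted 0.246, and rho = 0.375, permutation p = 0.055, adjusted 0.0733). Without 2 libraries r was 0.212, and 0.264 after subtraction (n = 21).

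**Figure D5:**
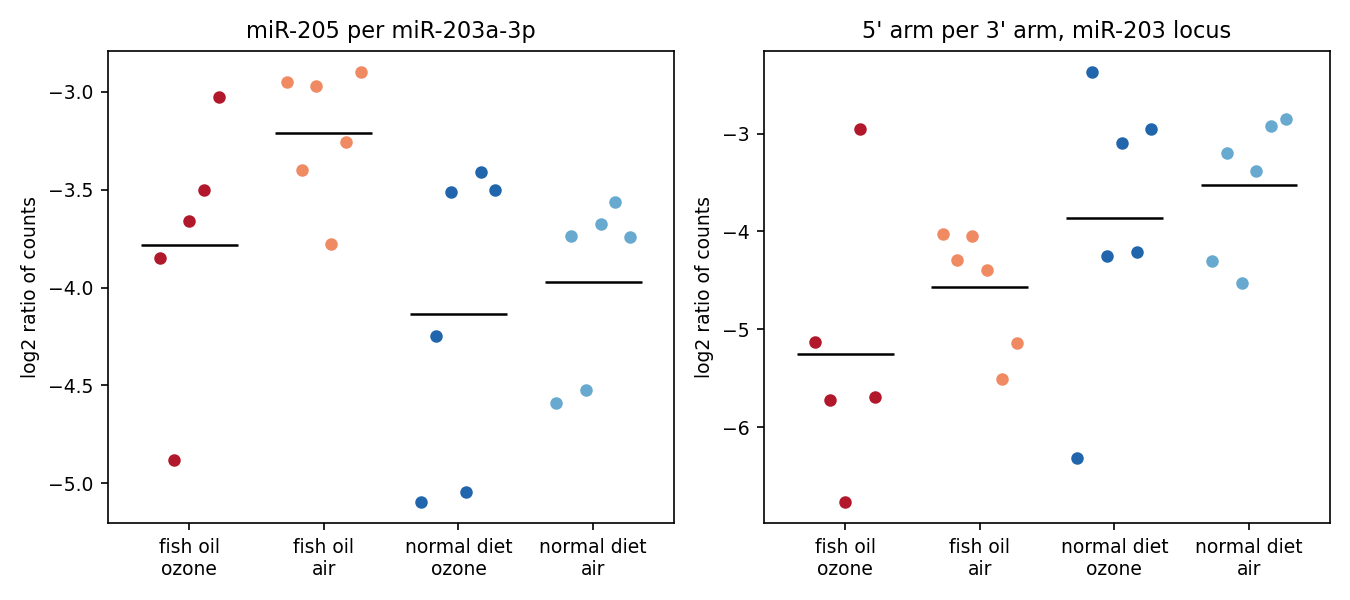
Log2 ratios of counts (y axis) by group, 1 point per library with black lines at group means: miR-205 to miR-203a-3p on the left, and the 5′ arm to the 3′ arm of the miR-203 locus on the right. The mean ratio on the left is highest in fish oil air, and on the right it is lower in both fish oil groups, without passing the adjusted test in either case.

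The tested miRNAs whose levels followed the members most closely over the 23 libraries were named by Spearman's rho of log2 CPM, as a description. For miR-203a-3p they were miR-221-3p (0.74), miR-205 (0.67), miR-222-3p (0.67), miR-101a-3p (0.63) and miR-29c-3p (0.61). After group means were subtracted, these were 0.65 for miR-221-3p, 0.61 for miR-205, 0.44 for miR-222-3p, 0.35 for miR-101a-3p and 0.34 for miR-29c-3p. For miR-205 they were miR-203a-3p (0.67), miR-152-3p (0.65), miR-181b-5p (0.64), miR-29c-3p (0.62) and miR-217-5p (0.62). After subtraction these were 0.61 for miR-203a-3p, 0.04 for miR-152-3p, 0.24 for miR-181b-5p, 0.26 for miR-29c-3p and 0.35 for miR-217-5p. Of the miR-200 family, miR-200a-3p, miR-141-3p and miR-429 had 0.54, 0.26 and 0.22 with miR-203a-3p, and 0.26, 0.03 and 0.02 with miR-205, in that order. All these levels share their library's scale factor and the diet.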

How the data were processed

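Small RNA from 100 µl of serum was purified with a biofluids kit that included DNase, and 10 ng entered a small RNA library kit read for 50 cycles from 1 end, per the labels. Bowtie 1.0.0, Partek, bcl2fastq and build rn5 were used, per the submitters' processing notes; filters and the handling of multiply mapped reads are not stated. The authors deposited expected counts per miRNA locus (832 loci, 50 with fractions) and RPM. RPM, as deposited by the authors, equal counts divided by an unstated total plus 0.0001, within 0.0359 reads.

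Loci of 1 name were summed and rounded. In R 4.3.3, 136 names that passed filterByExpr (minimum count 10, total 15; 99.3% of counts) were tested with edgeR 4.0.16 (TMM, robust quasi-likelihood, 1 mean per group, Benjamini-Hochberg over the 136, threshold 0.05), after a check on simulated counts. Alternatives used DESeq2 1.42.0, limma 3.58.1 and other scalings. Ratios were tested by exact two-sided permutation, and correlations with 100000 permutations. Named miRNAs were the members, the epithelial lists, the 5 closest to each member, and lists for erythrocytes, smooth and striated muscle and liver. The members, lists and comparisons were chosen with earlier results of these data known. Libraries were joined to groups by animal number; the numbers run in separate blocks by group, so any batch that followed them cannot be told apart from the groups. Of 24 labelled samples, 23 had data here.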

Additional observations from a re-analysis of the deposited data

Results flagged for a closer look

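In the 6 libraries of fish oil air, the log2 ratio of miR-203a-3p to the miR-200 family sum was −0.0192 in fish oil air 3, and the nearest of the other libraries had 0.848. That gap was larger than Dixon's 95% limit for a group of this size. Of 24 groups of values looked at in this way, 1 was singled out, and chance singles out about 1 in 20. Without fish oil air 3 the miR-203a-3p to miR-200 family comparison still missed the threshold, as it did in every fit that left out 1 library.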

How the results depend on the processing

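Values are log2 differences. The scale mattered most. With the implied read total, fish oil gave for miR-203a-3p −0.13 averaged, −0.33 in air and 0.080 in ozone, and ozone gave 0.24 averaged and 0.031 on the normal diet; for miR-205 fish oil gave 0.28 averaged and −0.032 in ozone, and ozone on the normal diet gave 0.26. limma on log2(RPM + 1) gave −0.20, −0.30, −0.10, 0.20 and 0.10 for the same miR-203a-3p comparisons, with or without the low-value filter, and for miR-205 0.20 for fish oil averaged and 0.047 for ozone on the normal diet. With RPM + 10 these were −0.14, −0.23, −0.044, 0.15 and 0.062, and for miR-205 0.047 and 0.041, with −0.0076 for fish oil in ozone. None of these passed; the cause was not tested.

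Within the miRNA pool, miR-205 in air was called by DESeq2 (1.34), total count scaling (1.55), scaling that left the 5 most abundant miRNAs out of the library size (1.47) and an unadjusted exact permutation test (1.08, p = 0.00433), which also passed miR-205 in ozone (0.92, p = 0.0498). In air, miR-205 was not called with voom, DESeq2 size factors in edgeR, the air groups alone, the erythrocyte covariate or no filter. miR-203a-3p in ozone lost its call with total count scaling (0.86) and without the filter (0.75), and its ozone difference on fish oil was −0.014 with total count scaling. With an offset of 1, miR-205 to the miR-200 family for ozone on the normal diet was 0.014. Over all settings, those of all reads included, the number called for fish oil was 42 to 76 averaged over exposures, 5 to 38 in air and 23 to 48 in ozone. The upper ends came from the scale of all reads, where calls were mostly lower (2 higher and 74 lower, of 440, for the 76). Within the pool the most called were 60 of 440, 15 of 136 and 36 of 440, in that order. The number called for ozone averaged over diets was 0 under 9 of 12 settings on both scales.

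Leaving out 1 library at a time gave 0.58 to 0.79 and 0.97 to 1.32 for fish oil averaged (miR-203a-3p and miR-205, all called), 0.67 to 0.98 for miR-203a-3p in ozone, 0.97 to 1.45 for miR-205 in air, and for ozone on miR-203a-3p −0.14 to 0.055 averaged and −0.089 to 0.26 on fish oil. Ratios ranged over 0.46 to 0.69, 0.64 to 0.88 and −0.31 to 0.029 (miR-205 to miR-203a-3p: fish oil averaged, in air, and ozone on the normal diet), over −0.36 to 0.17 and −0.026 to 0.39 (miR-203a-3p to the family: fish oil in ozone, and ozone on the normal diet), and over 0.74 to 1.03, 1.32 to 1.70, −0.029 to 0.56, −0.32 to 0.20 and −1.55 to −0.96 (miR-205 to the family: fish oil averaged, in air, in ozone, then ozone on the normal diet and on fish oil). The arm ratio for ozone on the normal diet ranged from −0.63 to 0.15. The number of miRNAs called ranged from 43 to 56 for fish oil averaged, 3 to 15 in air and 12 to 34 in ozone.

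No paired analysis was possible because the animal numbers pair no rats across groups. miR-205 failed the filter when only the normal diet groups were fitted. Depth limits miR-205, whose counts were as low as 3, and intervals as wide as those for ozone cannot exclude moderate changes.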

Other observations

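Among the miRNAs that followed the members, miR-221-3p and miR-222-3p come from 1 transcript and are known from vessel walls and proliferating cells. Relative to the other miRNAs, miR-221-3p rose on fish oil averaged over exposures by 0.45 (SE 0.16, edgeR adjusted p = 0.0230, 10 of 11 libraries above the normal diet mean), while miR-222-3p had +0.82 (SE 0.41, adjusted p = 0.113, 9 of 11). miR-101a-3p (+0.91, SE 0.22, adjusted p = 0.00200), miR-29c-3p (+1.09, SE 0.27, adjusted p = 0.00213), miR-152-3p (+1.15, SE 0.22, adjusted p = 0.000419) and miR-181b-5p (+0.48, SE 0.17, adjusted p = 0.0275) rose too. miR-217-5p, a miRNA abundant in the pancreas, rose by 3.14 (SE 0.64, adjusted p = 0.000704, 10 of 11). They were picked for their likeness to the members on the same libraries, so their direction is no separate evidence.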
